A study of Mus musculus with 6 samples.

Results

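The IGHV3 family, also called the 36-60 family, is a small group of immunoglobulin heavy chain V genes, and its chains were followed in the spleen B cells of 2 mice. Members were all heavy chains whose deposited V gene name begins with IGHV3-, taken as the primary heavy chain of a B cell. In the 564Igi mouse 97 of 3471 B cells with a heavy chain had such a chain, and in the wild-type (WT) mouse 219 of 4824 did. They used 6 of the 99 IGHV genes found in either mouse (IGHV3-1, IGHV3-3, IGHV3-4, IGHV3-5, IGHV3-6 and IGHV3-8). The V gene name chose the members and the family was picked with its usage in these mice known, so usage is given as a description.

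The 564Igi mouse was heterozygous for the alleles Ightm1(Igh564)Tik and Igktm1(Igk564)Tik, held on a B6.129S4(Cg) background, in which rearranged heavy and kappa light chain genes of an autoreactive antibody were placed into the Igh and Igk loci. The WT mouse was C57BL/6JRj. The labels give the age of neither mouse. From each spleen, depleted of Ter-119-positive erythroid cells, a B cell V(D)J, a T cell V(D)J and a gene expression library were made with a droplet 5′ kit, and the V(D)J tables of assembled receptor contigs were used here. Each genotype was 1 mouse, so no difference could be set against the spread between animals and no p-value was computed. Bracketed ranges beside a share or a difference are 95% intervals, exact binomial for a share. For a difference in percentage points (564Igi minus WT unless named otherwise), the exact limits of both shares were combined by Newcombe's method. These intervals cover counting error only. Ranges given with a median, or for the bases of a CDR3, run from the lowest to the highest value. Cells of 1 mouse share their source and are not replicates of a genotype.

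A heavy chain variable region is assembled in the developing B cell by joining a V, a D and a J segment, and bases can be trimmed or added at the joints. The stretch across the joints encodes the third complementarity-determining region (CDR3), usually the most variable part of the antigen-binding site. The V gene encodes the first and second such regions and the framework around them. A V gene family is defined by sequence similarity of its genes, and a joined heavy chain must pair with a light chain to be displayed as a receptor.

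In a mouse that carries a rearranged heavy chain from the start, the chains that are not the inserted one show what else the B cells made. One heavy chain, IGHV1-53 joined to IGHJ4 with a CDR3 of 42 bases, was primary in 1818 of the 3471 cells of the 564Igi mouse (52.4%) and in 0 WT cells. It is called the candidate chain, because the labels do not give the inserted sequence. The other 1653 cells of the 564Igi mouse are called non-candidate, and all 97 IGHV3 cells are among them. They were divided by whether the CDR3 ended in the amino acids GGFYYGMDYW, the last 10 residues of the candidate's CDR3. This ending is called the end below. The CDR3 bases of the candidate and of IGHV3 chains with and without the end are shown first, because most of what follows turns on which bases they share. Each is written 5′ to 3′ as deposited. Capitals mark the end in the candidate, and in every other chain the longest exact run, counted from the 3′ side, shared with the candidate's CDR3.
candidate IGHV1-53 chain: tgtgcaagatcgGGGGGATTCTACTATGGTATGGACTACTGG
564Igi IGHV3-1 with the end, 46 UMIs: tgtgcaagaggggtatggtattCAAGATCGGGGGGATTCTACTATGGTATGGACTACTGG
564Igi IGHV3-1 with the end, 44 UMIs: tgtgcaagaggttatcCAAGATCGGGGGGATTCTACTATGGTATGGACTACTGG
564Igi IGHV3-1 with the end and the shortest shared run, 19 UMIs: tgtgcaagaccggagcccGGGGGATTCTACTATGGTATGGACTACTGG
564Igi IGHV3-6 with the end, 54 UMIs: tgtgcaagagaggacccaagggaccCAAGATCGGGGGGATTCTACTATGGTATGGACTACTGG
564Igi IGHV3-8 with the end, 24 UMIs: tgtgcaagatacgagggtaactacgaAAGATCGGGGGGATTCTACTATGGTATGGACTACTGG
564Igi IGHV3-1 without the end, longest shared run, 11 UMIs: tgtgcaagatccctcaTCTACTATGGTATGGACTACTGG
564Igi IGHV3-6 without the end, 127 UMIs: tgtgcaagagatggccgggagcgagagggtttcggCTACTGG
WT IGHV3-1, IGHJ4, 35 UMIs: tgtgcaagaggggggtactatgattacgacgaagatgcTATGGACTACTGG
WT IGHV3-6, 1779 UMIs: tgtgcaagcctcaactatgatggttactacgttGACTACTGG

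The 564Igi chains shown with the end kept the candidate's last bases and carried other bases in front, and all but the one with the shortest run also kept some bases 5′ of the end. The WT IGHJ4 chain shared 13 bases, the longest run of any WT IGHV3 chain. Over WT chains of all V genes the longest run was 23 bases. A unique molecular identifier (UMI) is a random tag that marks 1 captured RNA molecule, so UMIs count molecules rather than reads. The UMI minimum of 2 had little room to act: among productive, high-confidence IGHV3 contigs of B cells there were 0 with 1 or 2 UMIs in 564Igi, and 0 with 1 UMI and 1 with 2 UMIs in WT. The lowest primary IGHV3 chain had 6 UMIs in 564Igi and 2 in WT.

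The family lies within chromosome 12 in the GRCm38 assembly, on the V side of the D and J genes. Ighv3-1 (chromosome 12, 113964390 to 113964683) is the gene of the family nearest to the J genes, 534.557 kb from Ighj1, and is the 21st of 98 located IGHV genes counted from there. The others lie together farther out. Ighv3-3 (114196439 to 114196875) is the 31st, Ighv3-4 (114253617 to 114253915) the 33rd, Ighv3-5 (114262652 to 114262950) the 34th, Ighv3-6 (114288152 to 114288447) the 35th and Ighv3-8 (114322376 to 114322666) the 37th. Ighv3-6 is 858.319 kb and Ighv3-8 892.543 kb from Ighj1. The annotation lists these 6 as V segments and Ighv3-2 and Ighv3-7 as pseudogenes. Both pseudogenes had 0 contigs in either B cell table.

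IGHV3-1 was the gene of the family that stood out in 564Igi. It made up 48 of 1653 non-candidate heavy chains in 564Igi, 2.90% (2.15 to 3.83), against 25 of 4824 in WT, 0.518% (0.336 to 0.764), a difference of 2.39 points (1.59 to 3.33) and 5.60-fold. IGHV3-6 made up 40 cells in 564Igi, 2.42% (1.73 to 3.28), against 166 in WT, 3.44% (2.94 to 3.99), a difference of -1.02 points (-1.90 to -0.0276). The interval for IGHV3-6 reached above 0 with a UMI minimum of 5 (-0.974, -1.89 to 0.0631) and where only cells with a single heavy and a single light chain were counted (-0.880, -1.85 to 0.225). IGHV3-8 had 8 cells in 564Igi, 0.484% (0.209 to 0.951), against 17 in WT, 0.352% (0.205 to 0.564).

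The remaining genes were rare in both mice. IGHV3-3 had 1 cell in 564Igi and 1 in WT. IGHV3-4 and IGHV3-5 had 0 cells each in 564Igi, which allows up to 0.181% (3 cells) of non-candidate chains, against 5 cells each in WT (0.104%), so a difference was not detectable at this depth. By share, the order in 564Igi was IGHV3-1, IGHV3-6 and IGHV3-8, and in WT it was IGHV3-6, IGHV3-1 and IGHV3-8. The intervals of IGHV3-1 and IGHV3-6 overlapped in 564Igi, and those of IGHV3-1 and IGHV3-8 overlapped in WT. Within the family IGHV3-1 thus held 49.5% (39.2 to 59.8) of chains in 564Igi and 11.4% (7.53 to 16.4) in WT, and IGHV3-6 held 41.2% (31.3 to 51.7) in 564Igi and 75.8% (69.6 to 81.3) in WT.

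The family as a whole made up 5.87% (4.78 to 7.11) of non-candidate chains in 564Igi and 4.54% (3.97 to 5.17) of chains in WT, a difference of 1.33 points (0.0765 to 2.70). When barcodes called in both the B and the T cell table were kept, this difference was 1.12 points and its interval (-0.0774 to 2.42) included 0. Of all 3471 heavy chains of the 564Igi mouse, the candidate included, the family made up 2.79%.

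Divided by the end, the higher share of IGHV3-1 lay with the chains that carried it. IGHV3-1 made up 42 of 712 chains with the end, 5.90% (4.28 to 7.89), and 6 of 941 non-candidate chains without it, 0.638% (0.234 to 1.38), against the 0.518% in WT. Without the end the difference from WT was 0.119 points (-0.353 to 0.886). IGHV3-6 made up 12 chains with the end, 1.69% (0.874 to 2.93), and 28 without it, 2.98% (1.99 to 4.27), which is -0.466 points (-1.60 to 0.923) from WT. IGHV3-8 had 4 cells with the end and 4 without it. The family without the end, at 39 of 941 cells or 4.14% (2.96 to 5.62), was -0.395 points (-1.73 to 1.19) from WT. Its makeup there was 6 IGHV3-1, 1 IGHV3-3, 28 IGHV3-6 and 4 IGHV3-8 cells, so IGHV3-6 held 71.8% (55.1 to 85.0), against 75.8% in WT.

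**Figure D1:**
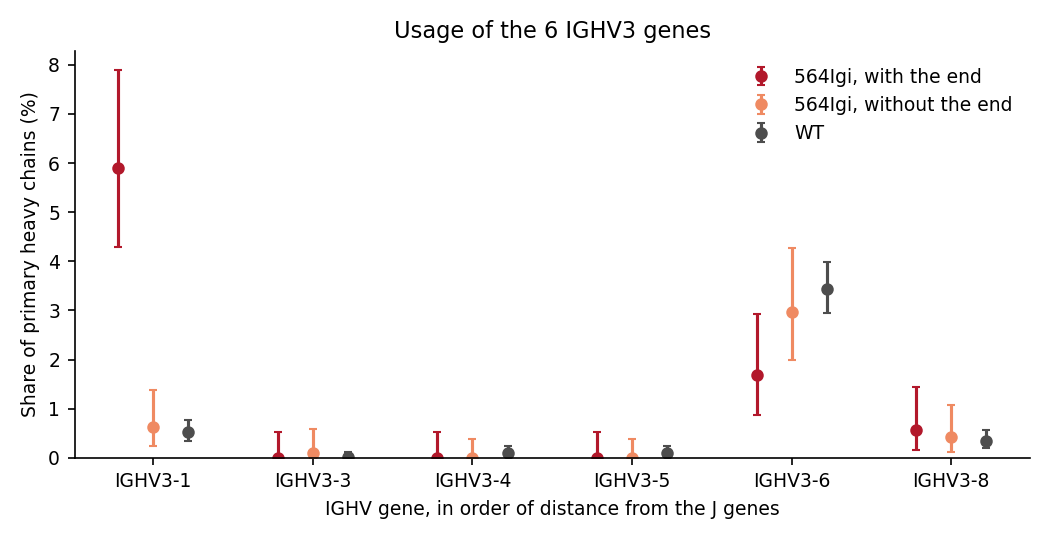
Share of primary heavy chains (%) that used each of the 6 IGHV3 genes, among 564Igi non-candidate chains with the end, those without it, and WT chains. Points are shares and bars exact 95% intervals. IGHV3-1 stands at 5.90% with the end, against 0.638% without it and 0.518% in WT, while for IGHV3-6 the point with the end is the lowest of its 3.

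Large ratios between the mice were not rare among IGHV genes. Only 3 of the 6 IGHV3 genes (IGHV3-1, IGHV3-6 and IGHV3-8) had enough cells to enter this count. Of 72 genes with at least 20 cells in the 2 populations together, 15 had a share at least 2-fold higher in non-candidate 564Igi chains than in WT (20.8%), 1 of 3 IGHV3 genes tested among them, and 11 were at least 2-fold lower (15.3%), 0 of the 3 among them. Without the end 8 of 72 were at least 2-fold higher (11.1%) and 9 at least 2-fold lower (12.5%), with 0 of the 3 IGHV3 genes in either. Between chains with and without the end 10 of 31 genes were at least 2-fold higher (32.3%), including 1 of 2 IGHV3 genes, and 6 at least 2-fold lower (19.4%), including 0 of 2. The median ratio of non-candidate 564Igi over WT was 1.37 over the 3 IGHV3 genes and 0.944 over all 72 genes, and without the end it was 1.21 over the 3 and 1.02 over the 72. Both medians over the 3 are the ratio of IGHV3-8, which had 8 non-candidate cells in 564Igi and 17 in WT. For the family as a whole the ratio was 1.29, and without the end 0.913.

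The share of a gene's own chains that carried the end differed widely within the family. The end was present in 42 of 48 IGHV3-1 chains in 564Igi, 87.5% (74.8 to 95.3), in 12 of 40 IGHV3-6 chains, 30% (16.6 to 46.5), and in 4 of 8 IGHV3-8 chains, 50% (15.7 to 84.3). IGHV3-1 was 57.5 points (36.6 to 73.0) above IGHV3-6 and 37.5 points (0.910 to 72.7) above IGHV3-8, whereas IGHV3-8 was 20 points (-18.1 to 56.8) above IGHV3-6, an interval that included 0. The family had the end in 58 of 97 chains, 59.8% (49.3 to 69.6), against 654 of 1556 other non-candidate chains, 42.0% (39.6 to 44.5), a difference of 17.8 points (7.02 to 27.9). IGHV3-6 alone was -12.0 points (-25.7 to 4.68) from those other chains. By family, IGHV2 had the end in 56.5% (49.0 to 63.8) of 184 chains and IGHV5 in 51.3% (43.2 to 59.3) of 158. Both intervals overlapped that of IGHV3. IGHV1, the family with most cells, had it in 37.7% (34.3 to 41.2) of 780. In WT the end was found in 0 of 219 IGHV3 chains, which allows up to 1.37%, and in 0 of all 4824 chains, which allows up to 0.0622%.

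Among the 31 IGHV genes with at least 20 non-candidate cells in 564Igi, IGHV3-1 had the highest share with the end and IGHV3-6 was the 24th. The next gene, IGHV2-9, had the end in 80.0% (65.4 to 90.4) of 45 chains, and IGHV3-1 was 7.50 points (-8.97 to 24.0) above it, so these neighbours did not differ beyond counting error. The gene's shares among chains with the end, chains without it and WT chains were also used to find the genes most like IGHV3-1, as the Euclidean distance between log2 shares over 30 other genes. The nearest were IGHV2-9, IGHV5-6 with the end in 76.0% of 25 chains, and IGHV1-66 with the end in 70.8% of 24 chains. IGHV2-9 resembled IGHV3-1 closely, with 5.06% of chains with the end and 0.956% of those without it, against 0.290% in WT.

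The end share also varied along the locus. The end was carried by 204 of 383 non-candidate chains from the 20 genes between Ighv3-1 and the J genes, 53.3% (48.1 to 58.3), by 90 of 210 from the 10 genes of other families between Ighv3-1 and Ighv3-6, 42.9% (36.1 to 49.8), and by 353 of 951 from the 61 genes beyond Ighv3-8, 37.1% (34.0 to 40.3). IGHV3-1, at the boundary of the first and the second region, exceeded both at 87.5%. IGHV3-6, at 30%, lay below both of its own, but its interval (16.6 to 46.5) contained the shares of both. Across the 31 genes Spearman's rho between end share and distance was -0.409, a description only, since all points come from 1 library.

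**Figure D2:**
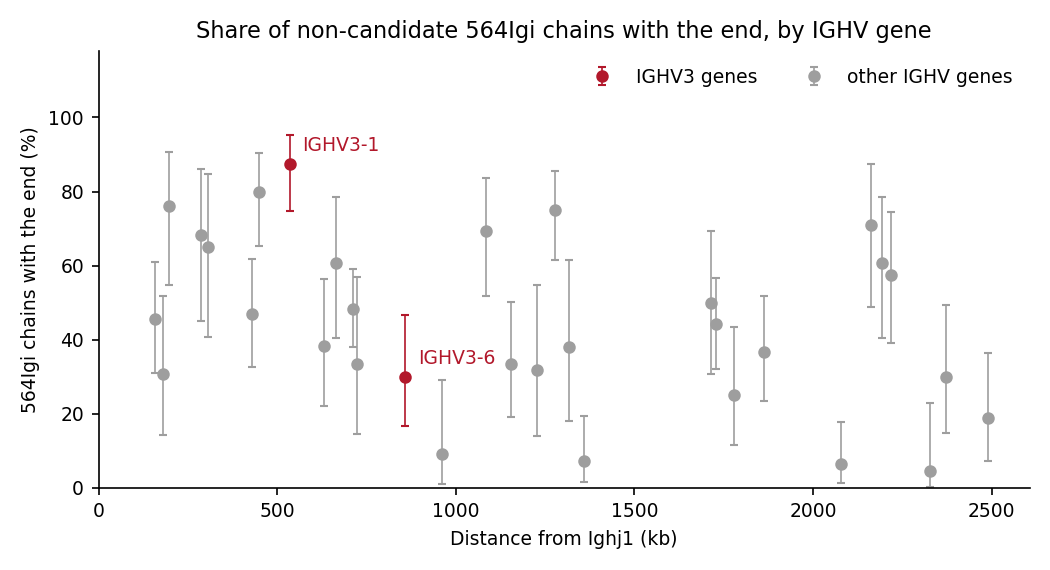
Share of non-candidate 564Igi chains with the end (%) against distance from Ighj1 (kb) for the 31 IGHV genes with at least 20 such cells. Points are genes and bars exact 95% intervals. IGHV3-1 is the highest point at 87.5%, and IGHV3-6 stands at 30%.

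The IGHV3 chains with the end were many different chains rather than copies of 1. The 58 cells carried 57 distinct CDR3 nucleotide sequences, and all 58 held the candidate's last 30 bases exactly. The exact run shared with the candidate had a median of 36 bases (30 to 42) with the end, against 9 (4 to 23) in IGHV3 chains without it and 9 (3 to 13) in WT. Extending past the rule, 55 of 58 also kept the serine before the end, 39 the arginine before that and 10 the alanine before both. The serine was kept in 94.8% of IGHV3 chains with the end and 92.4% of chains of other V genes with it, and the arginine in 67.2% and 62.4%. On the other side of the boundary, the IGHV3 chains without the end that shared most with the candidate were a pair of IGHV3-1 IGHJ4 chains with runs of 23 and 17 bases. Runs of up to 23 bases also occurred in WT chains of other V genes.

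In front of the shared stretch the chains with the end differed from each other. The bases before the shared run numbered a median of 24 (0 to 37), with medians of 24.5 in IGHV3-1, 21.5 in IGHV3-6 and 24 in IGHV3-8. A total of 56 of the 58 CDR3s were longer than the candidate's 42 bases. The 2 others, both IGHV3-1, had the candidate's CDR3 without a mismatch, at 32 and 20 UMIs. Both had IGHM and the same light chain, so by sequence they form a clonotype of 2 cells. Their CDR3 bases in both chains are those of the candidate chains, which many cells of that mouse carried. A common origin of the 2 cells is therefore not shown. Whether their heavy chains are of IGHV3-1 or candidate chains whose V gene was named otherwise was not tested. In all, 12 cells of the 564Igi mouse carried the candidate's CDR3 bases under another V gene name. Left out, the end share of IGHV3-1 was 86.96%.

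**Figure D3:**
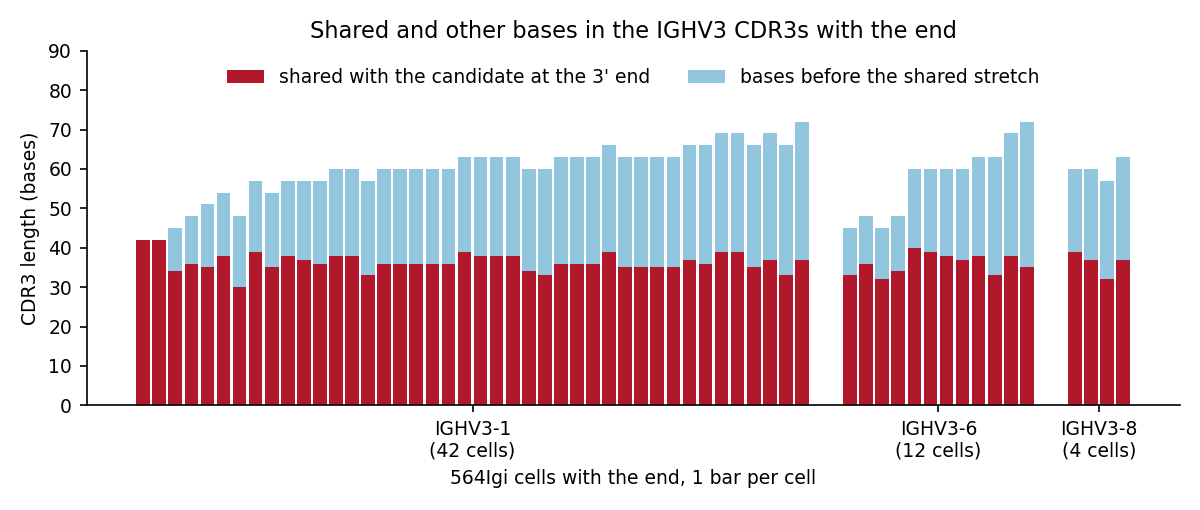
Length of the CDR3 in bases for each of the 58 IGHV3 cells of the 564Igi mouse with the end, 1 bar per cell, grouped by gene. The lower part of a bar is the run shared with the candidate at the 3′ side (30 to 42 bases), the upper part the bases before it (0 to 37). The lower part is nearly level, while the upper part ranges widely within each gene.

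CDR3s with the end were long. Their length had a median of 20 amino acids (14 to 24) in 564Igi IGHV3 chains with the end, against 13 (9 to 18) in those without it and 14 (7 to 22) in WT. Chains of other V genes had the same median of 20 with the end, and 14 both without it and in WT. At least 19 amino acids were found in 46 of 58 chains with the end (79.3%), in 0 of 39 without it and in 9 of 219 in WT (4.11%). The genes were alike in this: with the end the median was 20 in IGHV3-1, IGHV3-6 and IGHV3-8, and in WT it was 14 in all 3. Since the end adds a fixed stretch, these lengths follow partly from the division itself. IGHV3-1 without the end, with 6 cells, had a median of 13.

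**Figure D4:**
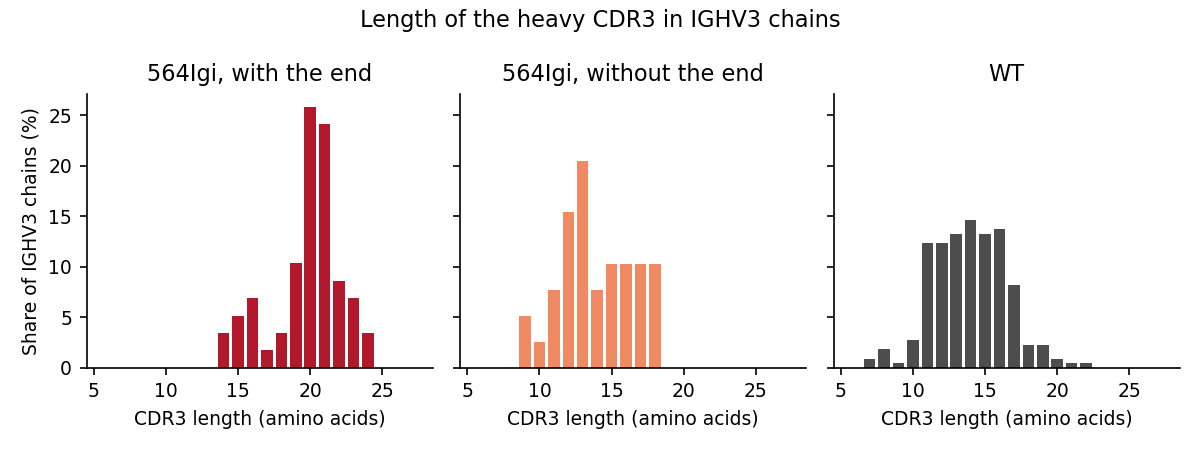
Distribution of CDR3 length (amino acids) in IGHV3 chains as a share of chains (%), for 564Igi with the end (58 cells), 564Igi without it (39 cells) and WT (219 cells). Chains with the end centre on a median of 20, whereas the others centre on 13 and 14.

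The J and D genes called for IGHV3 chains differed with the end as well. IGHJ4 was used by 67 of 97 chains in 564Igi, 69.1% (58.9 to 78.1), and by 61 of 219 in WT, 27.9%. The end fixes IGHJ4, which all 58 chains with it carried. Without the end IGHJ1, IGHJ2, IGHJ3 and IGHJ4 were used by 9, 14, 7 and 9 of 39 chains, against 46, 65, 47 and 61 of 219 in WT. The differences were 2.07 points (-11.3 to 19.1), 6.22 (-9.86 to 24.2), -3.51 (-15.5 to 12.9) and -4.78 (-18.3 to 12.5), each with 0 inside.

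With the end, the D gene was called IGHD2-8 in 14 of 58 chains, IGHD3-1 in 12, IGHD2-4 in 10, and IGHD1-1 and IGHD2-3 in 7 each. Genes of the IGHD2 family, of which IGHD2-8 is one, made up 37 of the 58. In WT IGHV3 chains the IGHD2 family made up 87 of 219 and IGHD1-1, the leading single gene, 75, while IGHD2-8 was called in 6 and IGHD3-1 in 3. IGHD2-8 was 21.4 points (10.7 to 34.5) higher with the end than in WT, IGHD3-1 19.3 points (9.46 to 32.0) higher and IGHD1-1 differed by -22.2 points (-31.9 to -9.32). Chains of other V genes with the end had a like profile: IGHD2-8 was called in 24.1% of IGHV3 chains and 23.1% of the others, IGHD3-1 in 20.7% and 18.8%, and IGHD1-1 in 12.1% and 14.2%. The candidate itself was called IGHD3-1 in all 1818 cells, so a call of IGHD3-1 can rest on bases that the end fixes, which was not tested. Chains called IGHD3-1 had a median of 13 bases before the shared run, against 24 in those called IGHD2-8. In IGHV3-6 with the end, IGHD3-1 was called in 6 of 12. Without the end, IGHD1-1 was called in 12 of 39.

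Net charge of the CDR3 was counted as lysines and arginines minus aspartates and glutamates. Positive charge there is a feature long studied in antibodies that bind nucleic acids. A net charge of 1 or more was found in 31 of 97 IGHV3 chains in 564Igi, 32.0% (22.9 to 42.2), and in 37 of 219 in WT, 16.9% (12.2 to 22.5), a difference of 15.1 points (4.36 to 26.3). The share in other non-candidate 564Igi chains was 32.8%, close to that of the family, and in other WT chains 24.5%. A net charge below 0 was found in 33.0% of IGHV3 chains in 564Igi and 53.9% in WT, a difference of -20.9 points (-32.3 to -8.54). With the end, the share at 1 or more was 37.9% (25.5 to 51.6). Without the end it was 23.1% (11.1 to 39.3), which is 6.18 points (-7.02 to 23.1) from WT.

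IGHV3-1 held most of the positively charged IGHV3 chains with the end. There, 19 of 42 IGHV3-1 chains reached a net charge of 1 or more, 45.2% (29.8 to 61.3), against 5 of 25 in WT IGHV3-1, 20% (6.83 to 40.7), and the interval of the difference (25.2 points, -0.560 to 46.0) included 0. In IGHV3-6 with the end 3 of 12 did, and in IGHV3-8 with the end 0 of 4. IGHV3-1 with the end was 20.2 points (-15.4 to 45.5) above IGHV3-6 with the end, so these genes were not told apart at this depth. The 10 residues of the end have a net charge of -1. In 41 of 58 IGHV3 chains with the end (70.7%) the residues in front of it had a net charge of 1 or more. Chains of other V genes with the end had this in 461 of 654 (70.5%). The residues counted include the candidate's arginine, which 39 of the 58 IGHV3 chains kept. They also include an arginine near the start of the CDR3, present in every IGHV3 chain with the end printed above. How much of the charge comes from the V gene was not tested. For the whole CDR3, the 37.9% of IGHV3 chains with the end at 1 or more was -1.37 points (-14.4 to 12.8) from the 39.3% of chains of other V genes with the end.

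In WT the charge of the family differed from that of the other V genes pooled. Whether other single families differ in the same way was not tested. IGHV3 chains of the WT mouse had a net charge of 1 or more less often than other WT chains (16.9% against 24.5%, a difference of -7.58 points, -12.5 to -1.81) and a net charge below 0 more often (53.9% against 39.9%, a difference of 14.0 points, 6.98 to 20.9). IGHV3-6, the main WT gene, had 26 of 166 at 1 or more (15.7%) and 91 below 0 (54.8%). IGHV3-8 lay on the other side of the other WT chains, with 5 of 17 at 1 or more (29.4%, 10.3 to 56.0) and 6 below 0 (35.3%). Its interval at 1 or more contained their 24.5%.

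Nearly all IGHV3 chains with a named constant gene were unswitched, as were those of other V genes, of which 1.86% were switched in non-candidate 564Igi cells and 0.555% in WT. With the end, 51 of 56 were IGHM, the constant gene of the first antibody class a B cell makes, and 5 were IGHD, which naive B cells make from the same transcript. Without the end 27 of 35 were IGHM, 7 IGHD and 1 IGHG1. In WT 162 of 199 were IGHM, 35 IGHD and 2 IGHA. The IGHG1 cell and both IGHA cells used IGHV3-6. The switched share of the family was 1.10% in 564Igi and 1.01% in WT, a difference of 0.0939 points (-2.70 to 5.05). IGHD was the constant gene of 13.2% in 564Igi and 17.6% in WT, a difference of -4.40 points (-13.0 to 5.66), and of 11.8% of other non-candidate chains in 564Igi and 21.6% of other chains in WT. A constant gene was not named in 6 IGHV3 cells in 564Igi and 20 in WT.

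The IGHV3 cells in 564Igi nearly all had 1 light chain partner. The candidate light chain, the most frequent one in that mouse (IGKV4-59 joined to IGKJ5), was primary in 93 of 97 IGHV3 cells, 95.9% (89.8 to 98.9), and in 0 of 215 IGHV3 cells with a light chain in WT, whose partners were spread over 65 light chain V genes. Other non-candidate cells of the 564Igi mouse had it in 1266 of 1533, 82.6% (80.6 to 84.5), so the family was 13.3 points (6.91 to 16.9) above them. By family IGHV3 had the highest share of the 10 families with at least 20 cells, ahead of IGHV14 at 92.5% (84.4 to 97.2), whose interval overlapped that of IGHV3. By gene IGHV3-1 (47 of 48, 97.9%) and IGHV3-6 (39 of 40, 97.5%) were the highest of 31. Close below them, with overlapping intervals, were IGHV1-69 at 96.4% (81.7 to 99.9), IGHV1-66 at 95.8% (78.9 to 99.9) and IGHV2-9 at 95.6% (84.9 to 99.5). The lowest of the 31 was IGHV6-3 at 72.7% (49.8 to 89.3).

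**Figure D5:**
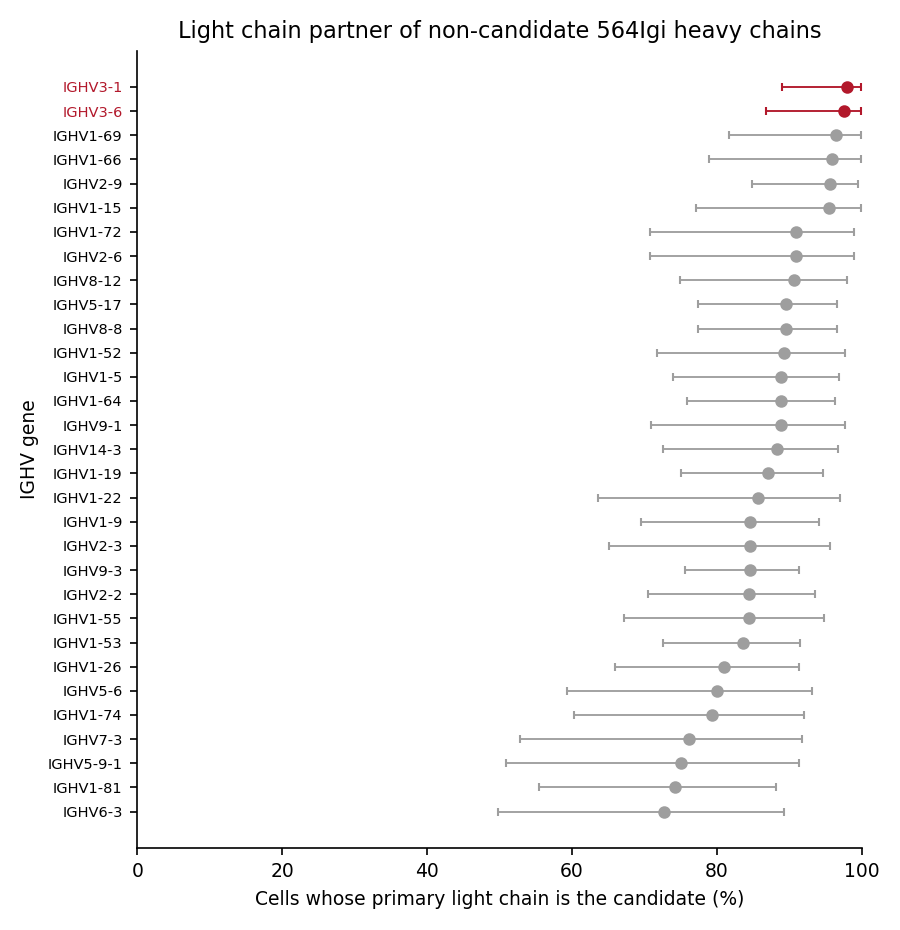
Share of cells (%) whose primary light chain is the candidate light chain, for the 31 IGHV genes with at least 20 non-candidate 564Igi cells with a light chain. Points are shares and bars exact 95% intervals. IGHV3-1 (97.9%) and IGHV3-6 (97.5%) stand at the top, with intervals that overlap those of many genes below them.

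The pairing was as frequent in IGHV3 cells without the end. There the candidate light chain was primary in 38 of 39 IGHV3 cells, 97.4% (86.5 to 99.9), and in 78.4% (75.5 to 81.0) of other non-candidate cells without the end, a difference of 19.1 points (7.84 to 22.9). With the end it was primary in 55 of 58 IGHV3 cells, 94.8% (85.6 to 98.9), against 88.5% (85.7 to 90.8) of other cells with the end, a difference of 6.37 points (-3.14 to 11.3) whose interval included 0. Counted in any high-confidence light chain contig of the cell, the candidate light chain was present in 98.97% of IGHV3 cells and 91.4% of other non-candidate cells, a difference of 7.58 points (2.80 to 9.40).

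The 4 exceptions in 564Igi weighed most on IGHV3-8, which had the candidate light chain in 6 of 8 cells, 75% (34.9 to 96.8). An IGHV3-1 and an IGHV3-8 cell, both with the end, had IGLV1, another IGHV3-8 cell with the end had IGKV8-30, and an IGHV3-6 cell without the end had IGKV17-127. Lambda chains were primary in 2 of 97 IGHV3 cells in 564Igi, 2.06%, and in 13 of 215 in WT, 6.05%, a difference of -3.98 points (-8.44 to 1.91). In WT the leading partners of the family were IGKV10-96 (12 of 215), IGKV14-111 (11) and IGKV12-44 (9). WT IGHV3-1 was led by IGKV5-48 with 3 of 24, WT IGHV3-6 by IGKV14-111 with 10 of 163, and WT IGHV3-8 by IGKV17-127 with 2 of 17.

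Few IGHV3 cells shared a clonotype. Among chains with the end this was not particular to the family. There, 58 IGHV3 cells had 57 distinct CDR3 sequences, and 654 cells of other V genes had 627. In 564Igi the 97 cells held 95 distinct heavy chains and 2 clonotypes of 2 cells each, and in WT the 219 cells held 219 distinct heavy chains and 0 such clonotypes. Cells of a clonotype had the same V and J genes and the same CDR3 bases in both chains. Beside the pair with the candidate's CDR3, the other clonotype in 564Igi was IGHV3-6 joined to IGHJ1 without the end, with a CDR3 of 18 amino acids and 59 and 33 UMIs.

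A single cell held much of the IGHV3 RNA in each mouse. The median was 20 UMIs per primary IGHV3 chain in 564Igi (6 to 3763) and 17 in WT (2 to 1779), and in each mouse 1 cell reached 1000 UMIs. Both of these used IGHV3-6 and IGHM. The cell in 564Igi lacked the end and had the candidate light chain, and the cell in WT had IGKV14-126. With the end, UMIs ran from 6 to 54 with a median of 22.

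Few IGHV3 cells in 564Igi also held the candidate heavy chain. The candidate was read in any contig of 1 of 58 IGHV3 cells with the end (1.72%) and 2 of 39 without it (5.13%), against 14 of 654 (2.14%) and 23 of 902 (2.55%) cells of other V genes. The primary IGHV3 chain itself does not count here, also not in the 2 IGHV3-1 cells where it has the candidate's CDR3. The candidate was also read in 849 of 4573 barcodes called only as T cells in that mouse, 18.6% (17.4 to 19.7). The parts of free RNA and of droplets with a B and a T cell in that share were not tested. IGHV3 contigs were read in 0 of those 4573 barcodes in 564Igi, which allows a share of up to 0.0656%, and in 7 of 3263 T cell barcodes in WT (0.215%), each at 1 UMI and with 0 productive contigs. B cells held an IGHV3 contig in 126 of 3827 barcodes in 564Igi (3.29%) and 325 of 6513 in WT (4.99%). A second heavy chain with another CDR3 was found in 7 of 97 IGHV3 cells in 564Igi (7.22%, 2.95 to 14.3) and 18 of 219 in WT (8.22%, 4.94 to 12.7). Over all heavy chain cells the 95% interval of this share was 2.82% to 4.06% in 564Igi, the candidate cells included, and 6.54% to 8.02% in WT. An IGHV3 chain was itself the second heavy chain in 4 cells in 564Igi, 1 of them with the end and 1 beside a primary candidate chain, and in 25 cells in WT.

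Contigs called nonproductive, which the choice of members did not use, also held the end. Of 51 B cells of the 564Igi mouse with a nonproductive heavy contig of at least 2 UMIs, 7 had one of the IGHV3 family, 13.7% (5.70 to 26.3), against 8 of 95 in WT, 8.42% (3.71 to 15.9). The difference of 5.30 points (-5.68 to 18.7) included 0, and was 10 points (-11.8 to 34.9) with a UMI minimum of 5 and 9.55 points (-7.08 to 31.7) with the confidence flag required, also with 0 inside. Among the 7 in 564Igi, 5 carried the end, in 2 of 3 IGHV3-1, 2 of 3 IGHV3-6 and 1 of 1 IGHV3-3 cells, whereas 0 of the 8 in WT did. Over all V genes 26 of the 51 cells in 564Igi had it, 50.98% (36.6 to 65.2), and 0 of the 95 in WT. In 6 of the 7 IGHV3 cells a different productive heavy chain was primary, and in 0 of these was it the candidate.

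Depth and recovery were uneven between the mice. The B cell tables held 747499 UMIs from 20898886 reads in 564Igi and 927382 UMIs from 24740982 reads in WT. A heavy chain was recovered in 91.0% of B cells with a light chain in 564Igi and 74.6% in WT, with medians of 18 and 14 heavy chain UMIs. The bearing of this recovery on the usage shares was not tested. The 564Igi strain name carries 129S4 while mm10, the build named for both mice, is of C57BL/6, and whether allelic differences move cells between IGHV3 gene names was not tested. The 2 B cell tables shared 38 called barcodes, 0 of them among IGHV3 cells.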

How the data were processed

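The 4 V(D)J tables of 6 described libraries were used, without those of gene expression. Each table lists contigs with raw read and UMI counts, unnormalized as deposited, per the file headers, with cell and confidence calls, gene names and CDR3. Cell Ranger 3.0.2 and the mm10 build are named, with no step, in the submitters' processing notes. The settings behind the cell calls and the flag are not given in the sources used here. Gene coordinates come from a RefSeq table of GRCm38.p6, the assembly of mm10, which matched 98 of 99 IGHV genes.

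B cells were barcodes called in a mouse's B cell table but absent from the calls of its T cell table. The 373 barcodes in 564Igi and 345 in WT called in both were left out, and no doublet caller was run. Productive, high-confidence contigs with at least 2 UMIs were kept, and the primary chain had most UMIs. IGHV3 contigs fell from 192 in 564Igi to 97 primary chains and from 517 in WT to 219. The candidate heavy chain was the most frequent CDR3 in 564Igi with IGHV1-53. Intervals are at 95%, Clopper-Pearson for a share and, for a difference, Newcombe's combination applied to Clopper-Pearson limits. For a count of 0 the share of 3 cells is printed. Ratios of shares were taken for genes with at least 20 cells, and called at 2-fold. Likeness added 0.5 cells. Named were all IGHV3 genes, the 3 genes most like IGHV3-1, the 3 leading light chain genes per gene and the clonotypes of at least 2 cells; the D genes, the light chain ranking by gene and the examples beside the boundary of the end were chosen after their values were seen. The choice of primary chains and the shares of the candidate, the family and the end were tested on simulated tables. The other measures were not. Members, lists and alternatives were chosen with earlier results of these data known. Software was SciPy 1.17.1, NumPy 2.4.6 and pandas 2.3.3 under Python 3.11.15, with figures from matplotlib 3.10.9.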

Additional observations from a re-analysis of the deposited data

How the results depend on the processing

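The 23 values followed under alternatives gave 180 alternative values. The alternatives were a UMI minimum of 1 or 5, barcodes called in both tables kept, cells with exactly 1 heavy and 1 light chain, distinct chains counted once, no confidence flag (for nonproductive chains, where it is not otherwise used, the flag required), and the end by the last 30 bases with up to 2 mismatches; the candidate by CDR3 alone was added after the data had been seen. All 180 kept their direction or lay inside the counting interval of the reported value, and 0 reversed. These counts overstate the check. The usage of IGHV3-1 entered both under its own name and as IGHV3 gene usage. Some alternatives could not move a value: the rule for the end does not enter usage undivided by the end. A UMI minimum of 5 removes no primary IGHV3 chain in 564Igi, where the lowest had 6 UMIs. Intervals that newly included 0 were those of family usage with barcodes of both tables kept (1.12 points) and of IGHV3-6 usage with a UMI minimum of 5 (-0.974) or single chains only (-0.880). The difference in nonproductive IGHV3 chains moved by over 1.5 times, to 10 points with a UMI minimum of 5 and 9.55 with the flag, within its interval. IGHV3-1 usage differed by 2.22 to 2.65 points, and its end share was 86.96% to 88.6%. With 1 mouse per genotype, depth limits the genes of few cells most: IGHV3-3, IGHV3-4, IGHV3-5 and IGHV3-8 carry wide intervals. No paired analysis was possible because each genotype was 1 mouse and no test was run.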
